A study of Homo sapiens with 6 samples.

Results

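The genes described here encode proteins that hold the endoplasmic reticulum (ER) close to the plasma membrane or to other organelles and move lipid across the gap. They were the 10 rows of the deposited count table whose symbol was ESYT1, ESYT2, VAPA, VAPB, GRAMD1A, GRAMD1B, GRAMD1C, GRAMD2A, GRAMD2B or STARD3, out of 63140 genes in all. Each symbol matched 1 row. HEK293 cells, an established human line from embryonic kidney, had been given 100 nM GSK-A1 (3 libraries) or the solvent DMSO (3 libraries) for 24 h. The cells were confluent and were grown in DMEM with fetal bovine serum, per the labels. GSK-A1 inhibits phosphatidylinositol 4-kinase alpha (PI4KA), the kinase behind the plasma membrane pool of phosphatidylinositol 4-phosphate, and the series asked how the RNA of the cells differed after its inhibition. The labels call the libraries biological replicates without saying how the cultures were kept apart, so p-values measure the spread between these libraries.

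At contact sites the ER and a second membrane run side by side without fusing. Proteins anchored in the ER reach across by binding lipids such as phosphoinositides and phosphatidylserine in the plasma membrane, and lipid transfer domains shuttle lipids between the membranes. Extended synaptotagmins tether through C2 domains and carry glycerolipids. VAP proteins are ER anchors on which many lipid transfer proteins dock by a short peptide, the FFAT motif. GRAMD1 proteins, also called Asters, carry cholesterol from the plasma membrane to the ER. STARD3 is a cholesterol transfer protein of late endosomes that docks on VAP proteins, so its known place is the contact of ER and endosome rather than the plasma membrane.

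The 250 bases before the start of 3 genes are shown (RefSeq, GRCh38.p14, each 5′ to 3′ on the strand of the gene). ESYT2 was chosen as the member whose change passed the test with all 6 libraries. VAPA and VAPB were chosen because their fold changes had opposite signs, although neither passed the test (edgeR adjusted p = 0.0941 and 0.334). The windows are chr7:158829510-158829759 on the minus strand for ESYT2, chr18:9913766-9914015 on the plus strand for VAPA and chr20:58388979-58389228 on the plus strand for VAPB. These starts are those of RefSeq and differ from the gene positions given below, which are from GENCODE 29. The ESYT2 window lies wholly inside the GENCODE span of the gene, and the VAPA and VAPB windows run past the GENCODE starts. Capitals mark matches to 6 motifs searched on both strands, which were CACGTG (E-box), TGANTCA (AP-1), GCGTGGGCG (EGR), CCGGAAGT (ETS), TGACGTCA (CRE) and CACCCCAC (core of the sterol regulatory element).
ESYT2: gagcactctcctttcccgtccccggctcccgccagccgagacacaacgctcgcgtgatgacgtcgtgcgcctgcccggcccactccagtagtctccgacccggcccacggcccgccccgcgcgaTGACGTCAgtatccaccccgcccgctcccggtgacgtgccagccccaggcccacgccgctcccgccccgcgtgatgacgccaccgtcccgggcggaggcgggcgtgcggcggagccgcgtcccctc
VAPA: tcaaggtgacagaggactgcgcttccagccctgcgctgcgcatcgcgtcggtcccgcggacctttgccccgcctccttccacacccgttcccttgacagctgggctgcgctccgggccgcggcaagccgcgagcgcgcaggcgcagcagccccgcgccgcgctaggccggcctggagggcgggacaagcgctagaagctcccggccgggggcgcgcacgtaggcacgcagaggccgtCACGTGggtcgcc
VAPB: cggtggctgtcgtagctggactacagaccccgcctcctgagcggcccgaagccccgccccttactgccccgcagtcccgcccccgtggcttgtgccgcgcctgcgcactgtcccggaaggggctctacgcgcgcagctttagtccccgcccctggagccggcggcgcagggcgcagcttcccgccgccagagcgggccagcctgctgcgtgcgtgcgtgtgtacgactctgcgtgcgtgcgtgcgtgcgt
The ESYT2 window held 1 CRE, which begins 126 bases before the RefSeq start, and 38 CG pairs. The VAPA window held 1 E-box, which begins 13 bases before the RefSeq start, and 35 CG pairs. The VAPB window held none of the 6 motifs and 33 CG pairs. Over 35116 promoter windows of the same length, 1.65% held the CRE and 6.34% the E-box, and the median number of CG pairs was 11. No matched motifs overlapped. Windows were given for 9 of the 10 members, in 12 entries, and the 1 other match among them was an E-box in a GRAMD2B window. A match is a description of the letters and was not tied to any binding.

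All 6 libraries carry the same batch label. Total counts per library lay between 33040178 and 47777233. GSK-A1 replicate 2 stood apart: the chi-square statistic per gene, which is near 1 when libraries differ by sampling of reads alone, was 11 and 15.5 for its pairs with GSK-A1 replicates 1 and 3, against 2.88 for the other GSK-A1 pair and 1.84 to 3.14 within DMSO. It was also set apart by GC content, the share of G and C in the longest transcript of a gene. Its transcripts under 40% GC lay at a median log2 difference of 0.12 from the mean of the 6 libraries and those of at least 60% GC at -0.11, while the other 5 libraries stayed within -0.04 to 0.05 in both ranges. Results are therefore given with and without this library where it matters. Of 5 markers listed for HEK293, NEFL, IGF2BP1 and LIN28B stood at 715, 240.2 and 109.9 CPM with DMSO (means, n = 3; CPM scales each count by the normalised total of its library), and NEFM and INA were at most 0.38 CPM in any library. LIN28B rose with GSK-A1 (0.29 on the log2 scale, adjusted p = 0.000274), and NEFL and IGF2BP1 did not pass the test (0.05 and 0.01). Markers of blood, endothelium and hepatocytes summed to at most 0.29 CPM per list. Those of fibroblasts summed to 16.4 to 17.6 CPM with DMSO and 10.2 to 12.6 CPM with GSK-A1, almost all from COL1A1 and COL3A1, with DCN and LUM at most 0.35 CPM each. COL3A1 fell (-0.81, adjusted p = 3.55e-06). The part of these markers in the results was not tested.

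Of the 10 tether genes, 8 had enough counts to be tested, and 1 of them, ESYT2, rose with GSK-A1. With all 6 libraries, none of the 8 was called lower by edgeR, DESeq2 or limma-voom. At an unadjusted p under 0.05 there were 4 of the 8, ESYT1, ESYT2, VAPA and GRAMD1C, all of them higher, against 35.8% of all genes at that threshold. Among all 16754 genes tested, 22.9% were called at an edgeR adjusted p under 0.05, 12.0% higher and 10.9% lower, and 12.5% of the members were. This relation turned when GSK-A1 replicate 2 was left out or the GC trend was removed, as given after the single genes. The calls over all genes were 52.3% higher, against 33.3% under upper-quartile factors. The median log2 fold change of the 8 was 0.08, against -0.01 over all genes tested. VAPB was the 1 tested member below 0. In 4 of the 8 the groups did not overlap, with GSK-A1 the higher in each, and 40.5% of all genes tested had groups without overlap. Sizes were small, between -0.06 and 0.22 on the log2 scale. Values are shares of a library, so a change in RNA per cell and a change in the mix of cells cannot be told apart.

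**Figure D1:**
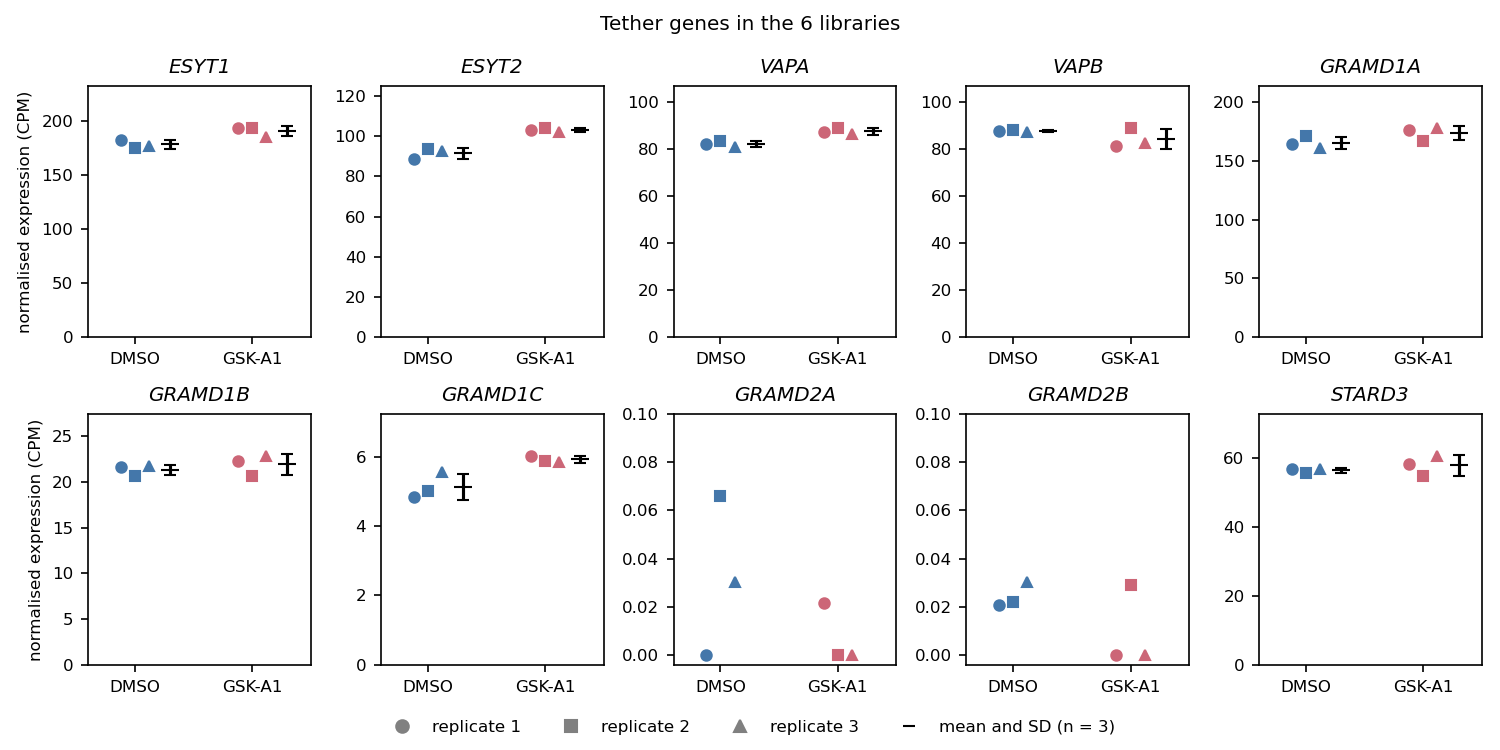
Normalised expression of the 10 tether genes (y axis, CPM, from 0) in the 3 DMSO and 3 GSK-A1 libraries. Points are libraries and black bars are mean and SD. ESYT1, ESYT2, VAPA and GRAMD1C have no overlap between the groups, and GRAMD2A and GRAMD2B, shown as libraries only, lie below 0.1 CPM throughout.

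ESYT2 (ENSG00000117868, chromosome 7, 158730995 to 158830253, GRCh38, minus strand, protein-coding) encodes an extended synaptotagmin that sits at the contact site in resting cells. DMSO replicates 1 to 3 had 88.4, 93.4 and 92.5 CPM of ESYT2, and GSK-A1 replicates 1 to 3 had 102.9, 104.2 and 102.3 CPM. The 3 treated libraries lay close together and above every control library. Its level rose by 12.8% (log2 fold change 0.17 ± 0.04, SE, 95% interval 0.09 to 0.25; edgeR adjusted p = 0.00439). ESYT2 was the 1 member called under all alternatives tried, with log2 fold changes of 0.13 to 0.19 and adjusted p-values from 2.39e-05 to 0.0414. Its GC content of 47.3% lies in the range (45% to 50%) where the median of all tested genes was 0.00056.

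ESYT1 (ENSG00000139641, chromosome 12, 56118250 to 56144671, plus strand) encodes the paralog that moves to the plasma membrane when cytosolic calcium is raised. It stood at 183, 176 and 177 CPM with DMSO and at 194, 194 and 186 CPM with GSK-A1, replicates 1 to 3. The groups did not overlap, since the lowest treated library (186 CPM) was just above the highest control (183 CPM). The log2 fold change was 0.10 ± 0.04 (95% interval 0.02 to 0.17), which did not pass the test over all genes (edgeR adjusted p = 0.0653). It did pass when GSK-A1 replicate 2 (0.09, adjusted p = 0.0183) or replicate 3 (0.12, adjusted p = 0.0410) was left out. Removing the GC trend of each library also brought ESYT1 past the threshold (0.13, adjusted p = 0.00653). Scaled by upper quartiles it was smaller (0.06, adjusted p = 0.264). Antisense exons overlapped 4.6% of the exonic bases of ESYT1, and ZC3H10 on its own strand overlapped 2.4%. ESYT3, the remaining family member, had at most 1 count in any library.

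Summed over ESYT1 and ESYT2, the extended synaptotagmins stood at 270.2 ± 1.4 CPM in the DMSO group and 294.2 ± 5.6 CPM in the treated group (SD, n = 3). ESYT1 supplied 67.4%, 65.3% and 65.7% of the pair's counts in DMSO replicates 1 to 3 and 65.3%, 65.1% and 64.5% in GSK-A1 replicates 1 to 3. These shares overlapped between the groups and differed by -1.20 percentage points (exact two-sided permutation p = 0.2, adjusted p = 0.3 over the 3 paralog shares, 3 libraries a group, which allow no p below 0.1). The difference ranged from -1.63 to -0.55 points with 1 library left out, and the smaller of these was found when DMSO replicate 1 was dropped.

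The VAP proteins did not pass the test in the fit of all 6 libraries, and their fold changes had opposite signs. VAPA (ENSG00000101558, chromosome 18, 9914002 to 9960021, plus strand) was at 82.1, 83.4 and 81.0 CPM with DMSO and at 87.3, 89.1 and 86.4 CPM with GSK-A1, in replicates 1 to 3. Every treated library was above every control library. The log2 fold change of VAPA was 0.09 ± 0.04 (95% interval 0.01 to 0.17; edgeR adjusted p = 0.0941). Without GSK-A1 replicate 2 it was 0.08 and narrowly passed (adjusted p = 0.0495), whereas with the GC trend removed it was 0.0094 (adjusted p = 0.872), and upper-quartile scaling gave 0.05 (adjusted p = 0.338). VAPA has the lowest GC content of the 8 tested members, 37.0%, a range (under 40%) in which the median of all tested genes was 0.07.

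VAPB (ENSG00000124164, chromosome 20, 58389122 to 58451101, plus strand) was at 87.8, 88.3 and 87.2 CPM with DMSO and at 81.2, 89.1 and 82.5 CPM with GSK-A1, in replicates 1 to 3. GSK-A1 replicate 2 was higher than all controls and the other 2 treated libraries lower, so the groups overlapped. The log2 fold change of VAPB was -0.06 ± 0.04 (95% interval -0.15 to 0.03; edgeR adjusted p = 0.334). Without GSK-A1 replicate 2, VAPB was called lower (-0.10, adjusted p = 0.0203), also with the GC trend removed in addition (-0.10, adjusted p = 0.0114; chosen after seeing the data). With the GC trend removed in all 6 libraries it was -0.08 (adjusted p = 0.0674), and upper-quartile scaling gave -0.10 (adjusted p = 0.0804). Leaving out GSK-A1 replicate 1 instead brought VAPB to -0.03 (adjusted p = 0.765).

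The VAPA share of the VAP pair was higher in each GSK-A1 library than in any DMSO library, which 3 libraries a group are too few to call. VAPA made up 48.3%, 48.6% and 48.2% of the pair's counts in DMSO replicates 1 to 3. It made up 51.8%, 50.01% and 51.2% in GSK-A1 replicates 1 to 3. Which of the pair leads depends on the length used: per kilobase of exon VAPA held 45.5% with DMSO and 48.1% with GSK-A1, and scaled by the longest transcript it was above VAPB in both groups. The difference of 2.65 percentage points had an exact two-sided permutation p of 0.1, the smallest that 3 against 3 libraries allow (adjusted p = 0.3 over the 3 shares). It ranged from 2.24 to 3.14 points when 1 library was left out, the last of these without GSK-A1 replicate 2. A share within a pair does not depend on the library total, but the 2 transcripts differ in GC content (37.0% and 44.5%), and the part of the GC trend in the share was not tested. The pair's summed level was 169.9 ± 1.8 CPM in the DMSO group and 171.9 ± 5.5 CPM in the treated group (SD, n = 3).

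**Figure D2:**
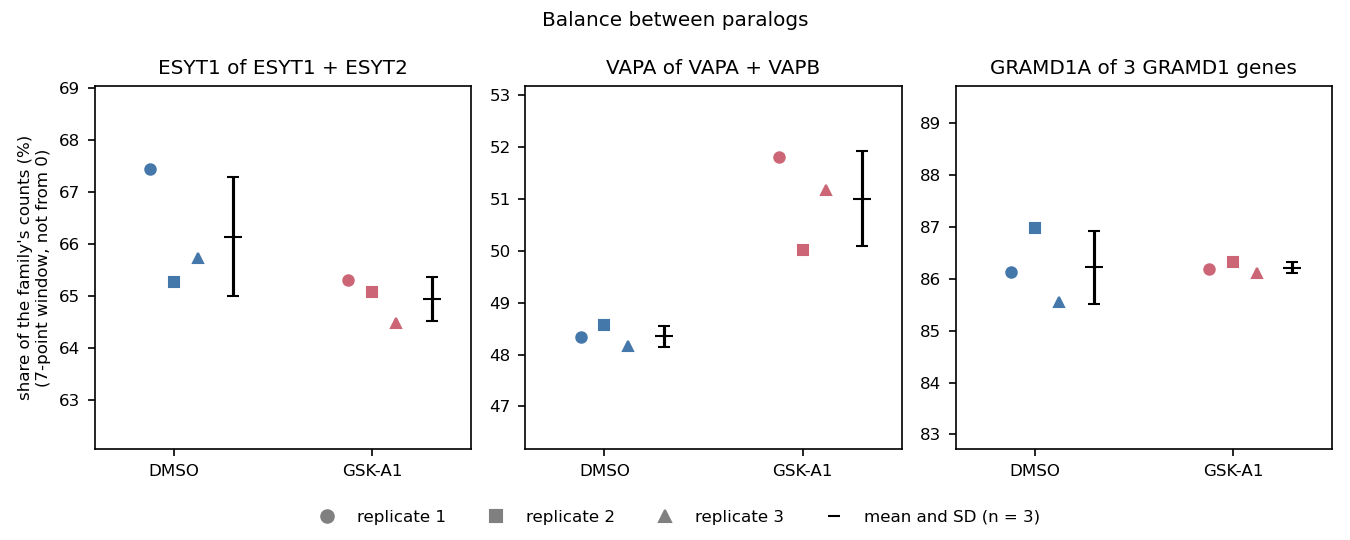
Share of a family's counts (y axis, percent, in a window of 7 points that does not start at 0) held by ESYT1, VAPA and GRAMD1A in each library. Black bars are mean and SD of 3 libraries. The VAPA share is 48.2% to 48.6% with DMSO and 50.01% to 51.8% with GSK-A1, while the other shares overlap between the groups.

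The GRAMD1 genes, which encode the Aster cholesterol carriers, did not pass the test in the fit of all 6 libraries. GRAMD1A (ENSG00000089351, chromosome 19, 34994784 to 35026471, plus strand) was at 164, 172 and 161 CPM with DMSO and at 177, 167 and 178 CPM with GSK-A1, in replicates 1 to 3. DMSO replicate 2 lay above GSK-A1 replicate 2, so the groups overlapped. The log2 fold change of GRAMD1A was 0.07 ± 0.04 (95% interval -0.01 to 0.15; edgeR adjusted p = 0.2004). Leaving out GSK-A1 replicate 2 it passed (0.10, adjusted p = 0.00717), as it did once the GC trend was removed (0.14, adjusted p = 0.00197). With upper-quartile scaling GRAMD1A was at 0.03 (adjusted p = 0.608). GRAMD1A has the highest GC content of the members, 62.8%, and the median of all tested genes of at least 60% GC was -0.09.

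GRAMD1B (ENSG00000023171, chromosome 11, 123358428 to 123627774, plus strand) was at 21.6, 20.7 and 21.7 CPM with DMSO and at 22.3, 20.6 and 22.9 CPM with GSK-A1, in replicates 1 to 3. The groups overlapped and the log2 fold change was 0.04 ± 0.06, with a 95% interval of -0.08 to 0.16 (edgeR adjusted p = 0.635). It was 0.09 when GSK-A1 replicate 2 was dropped, 0.02 when GSK-A1 replicate 3 or DMSO replicate 2 was, and 0.0019 with upper-quartile scaling. GRAMD1C (ENSG00000178075, chromosome 3, 113828182 to 113947174, plus strand), the least abundant of the 3, was at 4.84, 5.01 and 5.55 CPM with DMSO and at 6.03, 5.89 and 5.85 CPM with GSK-A1. All treated libraries were above all controls. Its log2 fold change of 0.22 ± 0.09 was the largest among the 8 tested members and also the least precise (95% interval 0.03 to 0.41), since it rests on 184 to 281 counts per library. It did not pass the test (edgeR adjusted p = 0.0888), nor under any alternative tried (0.0705 to 0.267). Antisense exons overlapped 2.2% of the exonic bases of GRAMD1C and 2.1% of those of GRAMD1A.

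GRAMD1A supplied 86.2% ± 0.7 of the counts of the 3 GRAMD1 genes in the DMSO group and 86.2% ± 0.1 in the treated group (SD, n = 3). The means differed by -0.0063 percentage points (exact two-sided permutation p = 0.9). Its sign turned when DMSO replicate 2 (0.37 points), GSK-A1 replicate 1 (0.0051) or GSK-A1 replicate 3 (0.040) was left out. Summed, the 3 genes stood at 192 ± 4 CPM with DMSO and 202 ± 7 CPM with GSK-A1.

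GRAMD2A (ENSG00000175318, chromosome 15, 72159807 to 72197785, minus strand) encodes a tether that binds plasma membrane phosphoinositides, and GRAMD2B (ENSG00000155324, chromosome 5, 126360132 to 126496494, plus strand) is its paralog. GRAMD2A had 0, 3 and 1 counts in DMSO replicates 1 to 3 and 1, 0 and 0 in GSK-A1 replicates 1 to 3. GRAMD2B had 1 count in each DMSO library and 0, 1 and 0 in GSK-A1 replicates 1 to 3. A count of 0 allows up to 3 counts, which is 0.0626 to 0.0905 CPM depending on the library, and this covers counting error only. Neither gene was tested, no fold is given, and a difference between the groups was not detectable at this depth.

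STARD3 (ENSG00000131748, chromosome 17, 39637065 to 39663484, plus strand) was at 56.8, 55.6 and 56.7 CPM with DMSO and at 58.2, 54.7 and 60.6 CPM with GSK-A1, in replicates 1 to 3. GSK-A1 replicate 2 was the lowest of all 6 libraries and the other 2 treated libraries were the highest. The log2 fold change of STARD3 was 0.04 ± 0.05 (95% interval -0.06 to 0.13; edgeR adjusted p = 0.592), and scaling by upper quartiles turned its sign (-0.0028). STARD3 passed narrowly once the GC trend was removed (0.10, adjusted p = 0.0445). It was 0.08 when GSK-A1 replicate 2 was dropped and 0.0073 when GSK-A1 replicate 3 was. Its GC content is 59.2%, in the range of 55% to 60% where the median of all tested genes was -0.06.

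**Figure D3:**
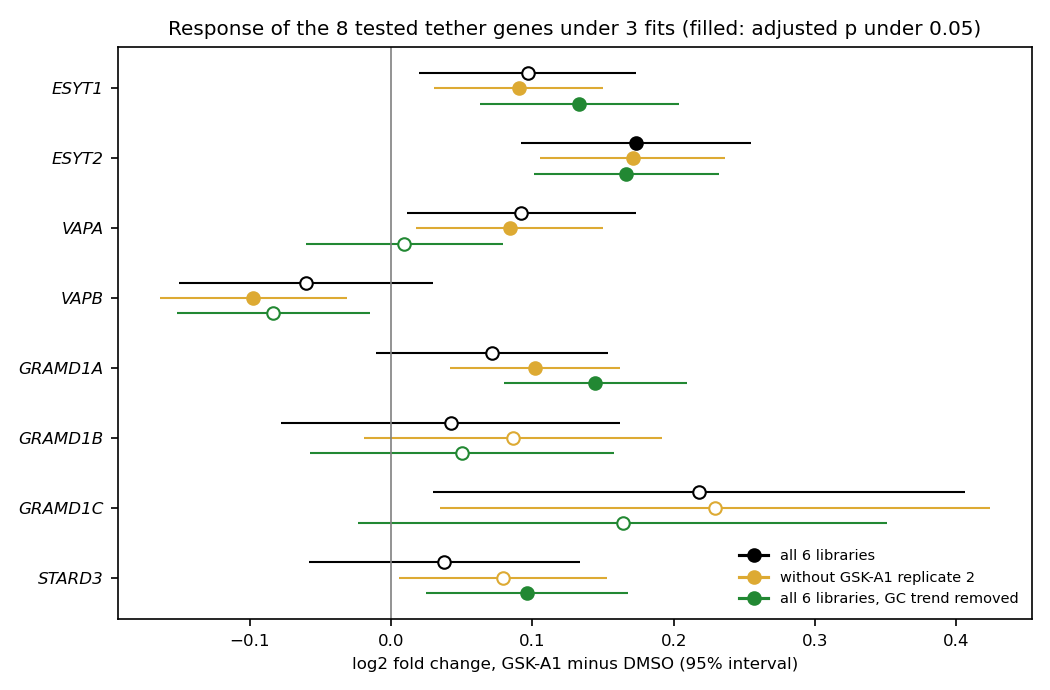
Log2 fold change (x axis, GSK-A1 minus DMSO) of the 8 tested genes with 95% intervals in 3 fits: all 6 libraries, 5 libraries (GSK-A1 replicate 2 left out), and all 6 after removal of each library's GC trend. Filled points have an edgeR adjusted p under 0.05. ESYT2 is filled in all 3 fits, ESYT1 and GRAMD1A in 2 of them, VAPA, VAPB and STARD3 in 1, and GRAMD1B and GRAMD1C in none.

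The number of members called thus depended on GSK-A1 replicate 2 and on GC content. Without that library 5 of the 8 were called, ESYT1, ESYT2, VAPA and GRAMD1A higher and VAPB lower, against 28.1% of all genes in the same fit. With GSK-A1 replicate 3 left out there were 2, ESYT1 and ESYT2, against 21.9% of all genes. With any other library left out ESYT2 alone was called, against 12.7% to 15.9% of all genes. After removal of the GC trend 4 were called, all higher, namely ESYT1, ESYT2, GRAMD1A and STARD3, against 25.6% of all genes. With both changes 5 were called, the same 4 higher and VAPB lower, against 27.4% of all genes. Over all tested genes the median log2 fold change ran from 0.07 for transcripts under 40% GC to -0.09 for those of at least 60%, and the share called higher ran from 23.1% to 4.64%. VAPA, GRAMD1C, ESYT2, GRAMD1B, ESYT1, STARD3 and GRAMD1A lay above the median of their GC range and VAPB lay below it.

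**Figure D4:**
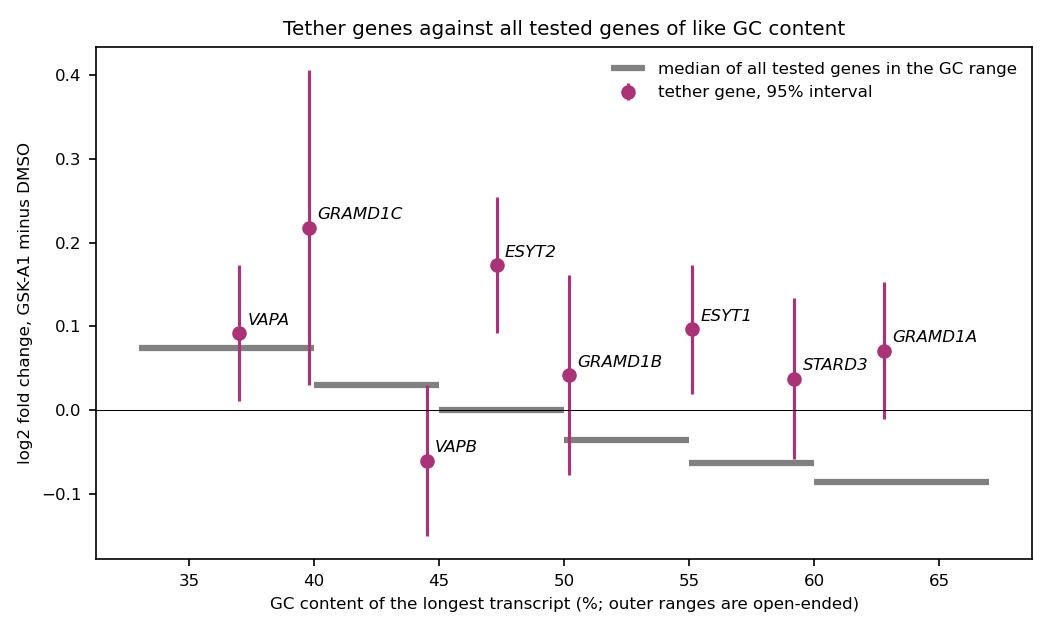
Log2 fold change (y axis, GSK-A1 minus DMSO) of the 8 tested genes against the GC content of their longest transcript (x axis, percent), with 95% intervals. Grey bars are the medians of all tested genes in 6 ranges of GC content, which fall from 0.07 to -0.09. All tether genes but VAPB lie above the bar of their range.

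Levels of different genes were compared per kilobase of exon, since longer transcripts give more reads. With DMSO, ESYT1 was highest at 32.5 ± 0.7 CPM per kilobase (SD, n = 3), followed by GRAMD1A at 27.9 ± 0.9. ESYT2 stood at 12.9 ± 0.4, STARD3 at 10.9 ± 0.1, VAPB at 8.29 ± 0.05 and VAPA at 6.92 ± 0.10 CPM per kilobase. GRAMD1B at 1.44 ± 0.04 and GRAMD1C at 0.66 ± 0.05 were far lower, and GRAMD2A and GRAMD2B were near 0. ESYT1 lay above 92.5% of all tested genes on this scale, VAPA above 63.9% and GRAMD1C above 20.6%. Neighbours among the first 8 did not overlap in any library of a group, and the same order of those 8 was found with GSK-A1. Scaled by the longest transcript instead of all exons, ESYT1 and GRAMD1A, ESYT2 and STARD3, and VAPA and VAPB each changed places with DMSO. With GSK-A1 on that scale, ESYT2 and STARD3 overlapped, so the order within these 3 pairs rests on the choice of length. GRAMD2A and GRAMD2B overlapped on either scale.

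Other genes of contact sites were read from lists written from general knowledge. Of 28 other genes listed for contacts between the ER and plasma membrane, 24 were tested, 3 rose and 2 fell, with a median log2 fold change of 0.05. Whether each encoded protein, that of PDZD8 included, sits at this contact was not examined. PDZD8, an ER lipid transfer protein, rose from 87.0 ± 1.7 to 98.0 ± 4.0 CPM (SD, n = 3; 0.17 ± 0.04, edgeR adjusted p = 0.00719) and JPH1, a junctophilin, from 49.0 ± 0.8 to 54.4 ± 1.8 CPM (0.15 ± 0.04, adjusted p = 0.0193). OSBPL5, which exchanges plasma membrane phosphoinositides for phosphatidylserine, fell from 18.9 ± 0.6 to 16.6 ± 1.1 CPM (-0.18 ± 0.06, adjusted p = 0.0436). Its partner OSBPL8, named after its value was seen, rose by 0.15 ± 0.05 (adjusted p = 0.0450). PITPNM3 fell by 0.29 on the log2 scale (SE 0.09, adjusted p = 0.0279). PITPNM1 and PITPNM2 of the same family, named after their values were seen, were not called (0.16 and 0.04, edgeR adjusted p = 0.0619 and 0.703). In place of 5 calls there were 1, 0 and 1 when DMSO replicate 1, 2 or 3 was dropped, 2 when GSK-A1 replicate 1 was, and 3 with DESeq2. The shares called over all genes in these fits were 12.9%, 13.2%, 12.7%, 15.9% and 18.5%, in that order, against 22.9% in the main fit. With the GC trend removed 7 genes of the list were called, 6 of them higher, beside 25.6% of all genes.

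All 21 genes of VAP partners and relatives were tested, of which 3 rose and 3 fell, with a median of 0.03 that turned to -0.01 under upper-quartile factors. ACBD5, which joins peroxisomes to VAP proteins, rose from 58.5 ± 1.8 to 66.3 ± 2.2 CPM (0.18 ± 0.04, edgeR adjusted p = 0.00700). STARD3NL, a relative of STARD3 without its lipid transfer domain, rose by 0.16 ± 0.05 (adjusted p = 0.0192), and OSBP, a sterol exchanger that docks on VAP proteins, by 0.14 ± 0.04 (adjusted p = 0.0258). OSBP2, its paralog, went from 7.13 ± 0.57 to 5.49 ± 0.14 CPM (-0.37 ± 0.09, adjusted p = 0.00722). In place of 6 calls there were 2 when either DMSO replicate 2 or GSK-A1 replicate 1 was dropped, and 1 when DMSO replicate 3 was. The shares called over all genes in these fits were 13.2%, 15.9% and 12.7%, in that order, against 22.9% in the main fit.

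Of 18 genes of cholesterol transport inside the cell, 14 were tested, 2 rose and 3 fell, with a median of -0.03. NPC1, which exports cholesterol from lysosomes, rose from 51.7 ± 2.5 to 65.6 ± 0.8 CPM (0.34 ± 0.04, edgeR adjusted p = 6.47e-05). SCARB2, a lysosomal membrane protein, rose from 139.8 ± 2.1 to 159.1 ± 10.3 CPM (0.19 ± 0.04, adjusted p = 0.00623). TMEM97, an ER protein that binds NPC1, fell from 153 ± 8 to 121 ± 3 CPM (-0.34 ± 0.04, adjusted p = 4.73e-05) and NPC1L1 from 3.74 ± 0.50 to 2.54 ± 0.45 CPM (-0.54 ± 0.14, adjusted p = 0.0111). In place of 5 calls there were 3 when DMSO replicate 2 was dropped, and 8 when GSK-A1 replicate 2 was or when the GC trend was removed. The shares called over all genes in these fits were 13.2%, 28.1% and 25.6%, in that order. The percentages called in the 3 lists were 20.8%, 28.6% and 35.7%, in the order given, beside 22.9% of all genes.

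**Figure D5:**
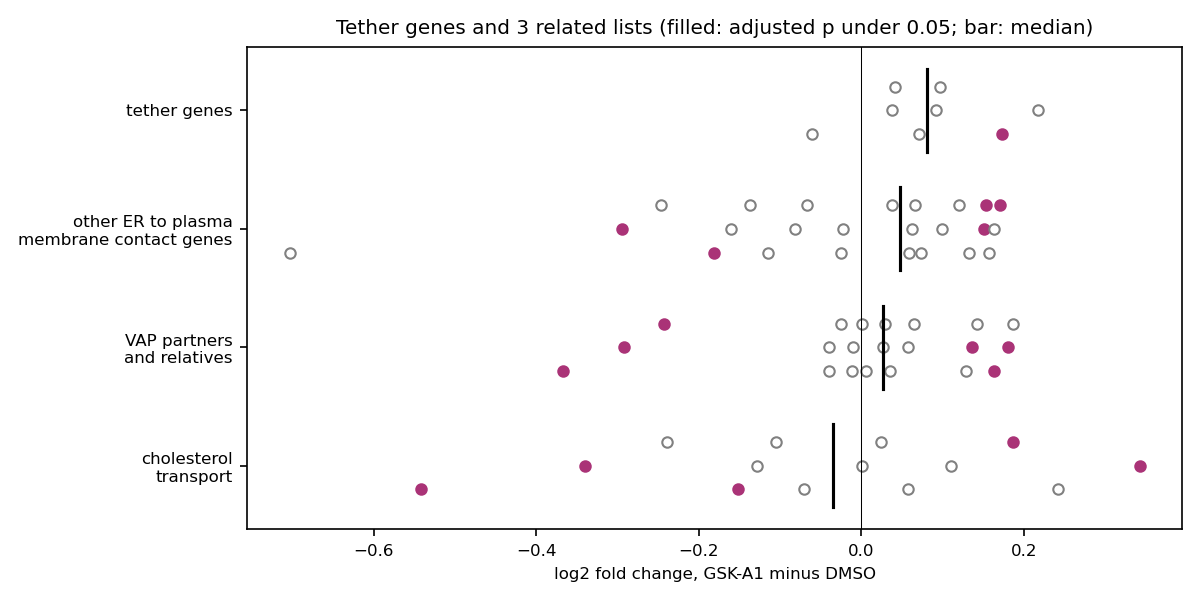
Log2 fold change (x axis, GSK-A1 minus DMSO) of the tested genes in the tether family and in 3 related lists (rows). Filled points passed the test, open points did not, and vertical bars are medians. The tether genes span -0.06 to 0.22 with 1 of 8 points filled, and the cholesterol transport genes span -0.54 to 0.34 with 5 of 14. Over all genes tested 22.9% were called. Without GSK-A1 replicate 2 (not shown), 5 tether genes and 8 cholesterol transport genes were called, beside 28.1% of all genes.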

How the data were processed

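RNA sequencing counts of 6 HEK293 libraries were used, 3 given DMSO and 3 given GSK-A1. The deposited table holds counts per gene as whole numbers, which the authors had not normalised. Per the submitters' processing notes, cutadapt 5.1, STAR 2.7.11b, featureCounts, Subread 2.1.1 and DESeq2 1.38.0 were used with GRCh38.p13. The annotation release and strand setting are not given in the sources used here, so a gene and an antisense partner may share reads. Libraries were made with a stranded kit, per the labels' protocols.

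Genes were kept by filterByExpr of edgeR (smallest count 10, smallest total 15), scaled by trimmed mean of M values (TMM) and tested over all 16754 genes with edgeR 4.0.16 in R 4.3.3 (quasi-likelihood F test, group as the only term, robust, legacy option off). P-values were adjusted by Benjamini-Hochberg over all genes and called under 0.05. Each SE was obtained as the size of the log2 coefficient over the root of its F statistic. CPM use TMM-adjusted totals of the tested genes. Reads carried no molecular identifiers, so the limit given for a count of 0 speaks for counting alone. Positions, exon lengths and GC content came from GENCODE 29 (GRCh38), which held all 10 members and need not be the annotation the counts used. GC content was known for 96.1% of tested genes. Its loess trend (span 0.3) in each library entered as an offset in 1 alternative. Paralog shares were compared by exact permutation tests.

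Alternatives were other library factors, filters and tests (DESeq2 1.42.0, limma-voom 3.58.1), the replicate number as a block, the GC trend, a stricter threshold and leaving out each library. The code was tested on simulated data. The members and lists were chosen with earlier results of these data known. The genes named are all 10 members, ESYT3, the fixed markers and up to 4 called genes with the smallest p-values per list, and other genes are said to be added.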

Additional observations from a re-analysis of the deposited data

How the results depend on the processing

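ESYT2 kept its direction and its call in all 17 alternatives tried. GRAMD1B and GRAMD1C kept their direction and stayed uncalled in all 17. The other 5 tested members passed the test in 1 to 5 alternatives, and of these STARD3 alone changed sign (-0.0028 with upper-quartile factors). The count of 3835 genes called over all genes became 1871 at an adjusted p under 0.01 and 2163 to 4890 with 1 library left out. As shares of all genes tested, the main fit called 22.9% and the threshold of 0.01 called 11.2%. Fits with 1 library left out called 12.7% to 28.1%. The counts below for members and lists stand beside these shares. The 1 member called became 4 with the GC trend removed, alone (25.6% of all genes called) or with the replicate block (26.5%). It became 5 with the GC trend removed and GSK-A1 replicate 2 left out, a fit chosen after seeing the data (27.4%). With 1 library left out 1 to 5 members were called. The 5 called genes of cholesterol transport became 8 with the GC trend removed (alone, with the replicate block, or without GSK-A1 replicate 2), 3 at an adjusted p under 0.01, and 3 to 8 with 1 library left out. The 5 called genes listed for other contacts between ER and plasma membrane became 3 with the DESeq2 Wald test, which called 18.5% of all genes. They became 1 at an adjusted p under 0.01, and 0 to 6 with 1 library left out. The 6 called VAP partners became 2 at an adjusted p under 0.01 and 1 to 7 with 1 library left out. The share of GRAMD1A changed by -0.33 to 0.37 percentage points with 1 library left out, and its sign turned in 3 of these 6 fits. A fit without 1 library has fewer samples, yet its calls over all genes were not always fewer, with 4890 when GSK-A1 replicate 2 was left out. The causes were not tested.

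The replicate numbers did not pair the libraries: deviations from the group means correlated across genes at 0.011, 0.019 and 0.032 for numbers 1 to 3, and GSK-A1 replicate 1 correlated as much with DMSO replicate 2 (0.012). With the replicate block 4127 genes (24.6% of all genes tested) and 1 member were called. Fits that left a group with 2 libraries kept a shared spread over genes. GRAMD2A and GRAMD2B had too few counts for any comparison.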
